A study of Mus musculus with 15 samples.

Results

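Heat shock proteins and the chaperones that work with them were followed through 48 h of culture of mouse dental mesenchymal cells (mDMCs). The members were the transcripts whose gene symbol names an HSP70 (Hspa), small heat shock protein (Hspb), HSP90, J-domain protein (Dnaja, Dnajb, Dnajc), CCT subunit or BAG protein, together with Hspd1, Hspe1, Hsph1 and Hsf1. The rule used symbols only and no measured value, and it took 68 of the 12089 transcripts in the table, 1 for each gene. These were 10 HSP70, 3 HSP90, 3 small heat shock proteins, 2 mitochondrial chaperonin genes, Hsf1, 6 BAG proteins, 7 CCT subunits, 4 Dnaja, 9 Dnajb and 23 Dnajc genes. Another 20 genes of the same symbols, among them Hspa5 and Hsph1, were not analysed here.

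RNA-seq was done on mDMCs from the first molar of the mandible of ICR mouse embryos at E14.5, freed of epithelium with dispase and dissociated with trypsin. There were 3 libraries of mDMCs taken straight after isolation (0 h). Culture in medium with FBS gave 2 libraries at 12 h and 3 each at 24, 36 and 48 h, and 1 library came from undissociated dental mesenchymal tissue. No genotype differed between the groups. Time in culture was not the only difference, because the tissue was not dissociated and only the cultured groups were in medium with FBS. In comparisons of cultured groups with 0 h, time in culture and the culture medium cannot be told apart. The sources do not say whether libraries of a group came from separate dissections, so the p-values measure the spread between these libraries, which may be technical. Coordinates of genes are those of GRCm38. All values are expression scores on the authors' normalized scale, in which every library has the same distribution (median 721, largest score 127101). A score is therefore a level relative to the other transcripts of its library, depth is unknown, and scores of different genes were not compared because they carry no correction for length. Changes are given as log2 differences of (score + 1). A transcript was called higher or lower when limma's p-value, adjusted over the 12079 transcripts tested, was below 0.05, and all 68 members were tested. For 8 members, among them Hsp90b1, Cct6a, Dnaja3, Dnajb4 and Dnajc15, the transcript in the table is not of the protein-coding type.

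Chaperones bind unfolded or partly folded proteins and keep them from clumping until they fold, move to their compartment or are degraded. HSP70 proteins do this in cycles of ATP use that J-domain proteins start and BAG and other exchange factors end, HSP90 finishes the folding of kinases and receptors, CCT folds actin and tubulin in a closed chamber, and small heat shock proteins hold clients without using ATP. Heat, oxidation and other stress release HSF1, a transcription factor that binds repeats of the unit GAA in promoters and switches on the inducible members, while unfolded protein in the endoplasmic reticulum (ER) acts through ATF6 and other sensors on promoters with a CCAAT box followed by CCACG.

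Promoter stretches of 5 members that hold such letters are shown, chosen for that, while most member windows held none of the patterns searched. They were read from RefSeq (GRCm38.p6), which held the bases from 250 before to 50 after the start for 54 of the 68 members, and are printed in the direction of transcription with the matching letters in capitals. Hspa8, Hspa9, Hsp90aa1, Hsp90ab1 and Hsf1 were among the members without a window and were not searched. The stretch before Hspa1a lies at chr17:34972167-34972286 on the minus strand, and the same 120 bases precede Hspa1b at chr17:34959249-34959368, also on the minus strand. It holds 1 GAANNTTC at position -104 from the start. The stretch before Hspb1 lies at chr5:135887789-135887848 on the plus strand and holds 2 copies of GAANNTTC. The stretch before Hspe1 lies at chr1:55088054-55088081 on the plus strand, between the divergent genes Hspe1 and Hspd1, and its capitals are units of TTC and its complement GAA in alternation, 2 bases apart. The stretch before Dnajc3, a J-domain protein of the ER, lies at chr14:118937817-118937856 on the plus strand and holds CCAAT, 9 further bases and CCACG, from position -105.
Hspa1a: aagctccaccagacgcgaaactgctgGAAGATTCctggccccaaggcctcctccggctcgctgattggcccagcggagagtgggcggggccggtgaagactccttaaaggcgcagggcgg
Hspb1: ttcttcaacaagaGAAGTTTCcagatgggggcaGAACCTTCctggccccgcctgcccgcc
Hspe1: gtccgTTCTAGAACCTTCCGGAAggccc
Dnajc3: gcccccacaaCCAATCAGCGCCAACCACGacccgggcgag

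GAANNTTC or TTCNNGAA occurred in 13 of the 54 member windows (24.1%) and in 15.1% of 32817 RefSeq windows of the same length. Of these 13, Hspb1, Hspb8, Hspe1 and Cct6a were called higher at 48 h than at 0 h, Cct5 and Dnajc27 were called lower, and Hspa1a, Hspa1b, Hspd1, Bag3, Dnaja1, Dnajb6 and Dnajc10 were not called at that time, when 37.1% of all transcripts were called higher and 34% lower. At 36 h only Hspb1 of the 13 was called higher, beside 36% of all transcripts. Cct5, Dnaja1, Dnajb6, Dnajc27, Hspa1a and Hspa1b were called lower at 36 h, beside 34%. The 36 h calls of Dnaja1, Dnajb6, Hspa1a and Hspa1b were lost in fits that left out 1 library. A run of 3 alternating units of GAA and TTC, each 2 bases apart, occurred in 3 of 54 windows (5.56%), those of Hspd1, Hspe1 and Dnajb6, against 0.603% of all windows. The windows of Hspd1 and Hspe1 overlap and hold the same element, which is thus counted for both genes. CCAAT followed after 9 bases by CCACG, on either strand, occurred in 2 of 54 windows (3.7%), those of Dnajc3 and Hsp90b1, against 0.119% of all windows. Every window that holds a run of 3 units also holds the shorter pattern, and a match describes letters only.

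Members moved in both directions after isolation, with more rises than falls. The share of members called higher was near that of all transcripts at 12 and 36 h. The share called lower was below that of all transcripts at all 4 culture times. From 0 to 12 h, 23 members were called higher and 10 lower, where 29.9% of all transcripts tested were higher and 28.3% lower. At 24 h, 31 were higher and 12 lower than at 0 h, beside 35% and 31.8% of all transcripts. At 36 h, the counts were 26 and 14, beside 36% and 34%. At 48 h, 33 were higher and 10 lower, beside 37.1% and 34%. The plot of shares called sets these counts against the background. The median log2 change of the 68 members from 0 h was 0.205, 0.275, 0.152 and 0.303 at 12, 24, 36 and 48 h, and that of all transcripts lay between 0.016 and 0.031. Over the course, 15 members were higher than at 0 h at all 4 culture times, 4 were lower at all 4, and 10 were called at none, beside 23%, 21% and 14.1% of all transcripts.

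**Figure D1:**
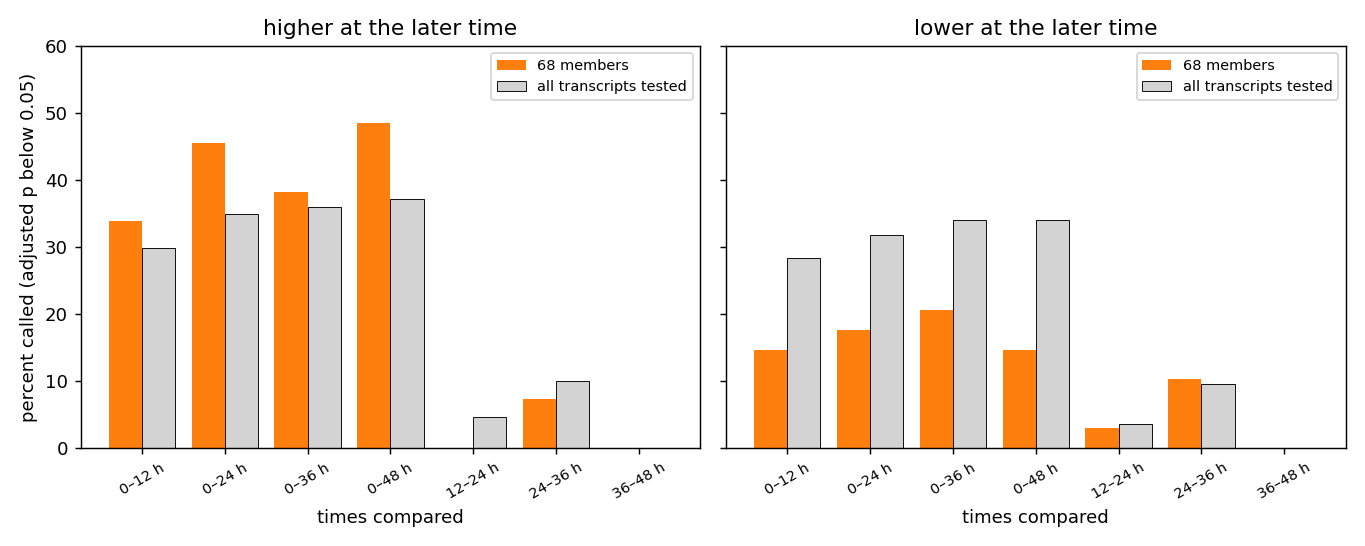
Percent of the 68 members (orange) and of all 12079 transcripts tested (grey) called higher (left) or lower (right) in each pair of times, at an adjusted p below 0.05. The members' share of lower calls from 0 h is below the share of all transcripts at every time, with 10 to 14 members lower, and few members were called between neighbouring times in culture.

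Fewer members were called between neighbouring times in culture. From 12 to 24 h no member was called higher and 2 were called lower (4.59% and 3.67% of all transcripts). From 24 to 36 h, 5 were higher and 7 lower (10% and 9.64%). From 36 to 48 h no member was called in limma, as against 0% of all transcripts higher and 0.0248% lower, while 10 members were higher and 3 lower at an unadjusted p below 0.05, as were 1617 of 12079 transcripts in either direction. With the study's threshold of an unadjusted p below 0.05 and a change of more than 2-fold, 4 members were higher and 1 lower from 0 to 12 h, where 12.2% and 12.1% of all transcripts were. From 0 to 48 h, 5 were higher and 1 lower by that threshold, beside 16.2% and 15.9%. Most calls among the members were thus of changes under 2-fold. The 12 h group has 2 libraries, and 17 of the 33 calls from 0 to 12 h were lost when 1 library was left out. The losses were 10 of 43 calls at 24 h, 10 of 40 at 36 h, 6 of 43 at 48 h, 2 of 2 from 12 to 24 h and 8 of 12 from 24 to 36 h.

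The cells in the libraries also changed, which touches every bulk value: fewer cells of a type and less RNA per cell cannot be told apart. All 10 dental mesenchyme markers listed (Msx1, Pax9, Lhx8 and others) had scores, and their sum was 82908 to 98231 at 0 h and 47979 to 57031 at 48 h. Red cell transcripts summed to 85597 to 134918 at 0 h and to 44 to 162 at 48 h. The sum of 5 endothelial markers was 6856 to 8105 at 0 h and 1839 to 3400 at 48 h, that of 5 epithelial markers was 1393 to 12742 and 327 to 1139, and that of 2 macrophage markers was 684 to 817 and 241 to 300. Of 16 proliferation genes, 9 were lower at 12 h, 13 were lower at 48 h and none was higher at either time. Among all transcripts 28.3 and 34% were lower and 29.9 and 37.1% higher at 12 and 48 h. Of 14 immediate early genes, which dissociation of tissue can induce, 12 were lower at 12 h than at 0 h, beside 28.3% of all transcripts. Their summed scores ran from 49779 to 227614 at 0 h, and the sum in the undissociated tissue, 67516, lay within that range. The library of replicate 1 at 48 h was closest to replicate 1 at 36 h (Pearson r = 0.984 over transcripts), and its mean r with its own group was 0.978. Without it, 32 members were higher and 10 lower at 48 h than at 0 h.

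The small heat shock proteins held the largest rise of all members. Hspb1 encodes HSP27, which binds unfolding proteins and actin filaments (transcript ENSMUST00000005077, chr5:135887919-135889563). Hspb1 was listed at 162, 40 and 109 at 0 h, 1680 and 1597 at 12 h, 1158, 1975 and 1883 at 24 h, 580, 626 and 969 at 36 h, 606, 1729 and 1852 at 48 h, and 223 in the tissue. Every cultured library was above all 0 h libraries and above the tissue, and the lowest cultured scores were those of 36 h and of replicate 1 at 48 h. The mean score went from 104 ± 61.2 (SD, n = 3) in fresh mDMCs to 1672 ± 448 (SD, n = 3) by 24 h. The log2 change from 0 h was 4.18 (SE 0.54, adjusted p = 3.03e-05) at 12 h and 4.17 (adjusted p = 7.31e-06), 2.97 (adjusted p = 0.000124) and 3.79 (adjusted p = 1.43e-05) at 24, 36 and 48 h. These are 18.2, 18, 7.83 and 13.8 times the level at 0 h on the log2(score + 1) scale. At 0 h, replicate 1 held the highest Hspb1 score and also the highest score of the epithelial keratin Krt14 (5832, against 645 and 838). Its part in the 0 h value was not tested. Without that library the Hspb1 change was 4.61 at 12 h and 4.22 at 48 h, and without replicate 2 of 0 h it was 3.61 and 3.22.

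Hspb8, a partner of BAG3 in clearing misfolded proteins by autophagy, was called at 48 h only. Hspb8 had scores of 466, 78 and 98 at 0 h, 326 and 429 at 12 h, 267, 404 and 363 at 24 h, 259, 276 and 550 at 36 h, 469, 757 and 1169 at 48 h, and 421 in the tissue. Replicate 1 at 0 h overlapped the cultured libraries and the other two did not. The log2 change was 2.28 (SE 0.56, adjusted p = 0.00259) at 48 h, 3.08 without replicate 1 at 0 h and 1.80 without replicate 2. At 12, 24 and 36 h it was 1.28, 1.15 and 1.15 (adjusted p = 0.0946, 0.0858 and 0.0826). Hspb11, which in spite of its name is a part of the transport machinery of cilia, had log2 changes between -0.03 and 0.31 and was not called at any time.

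**Figure D2:**
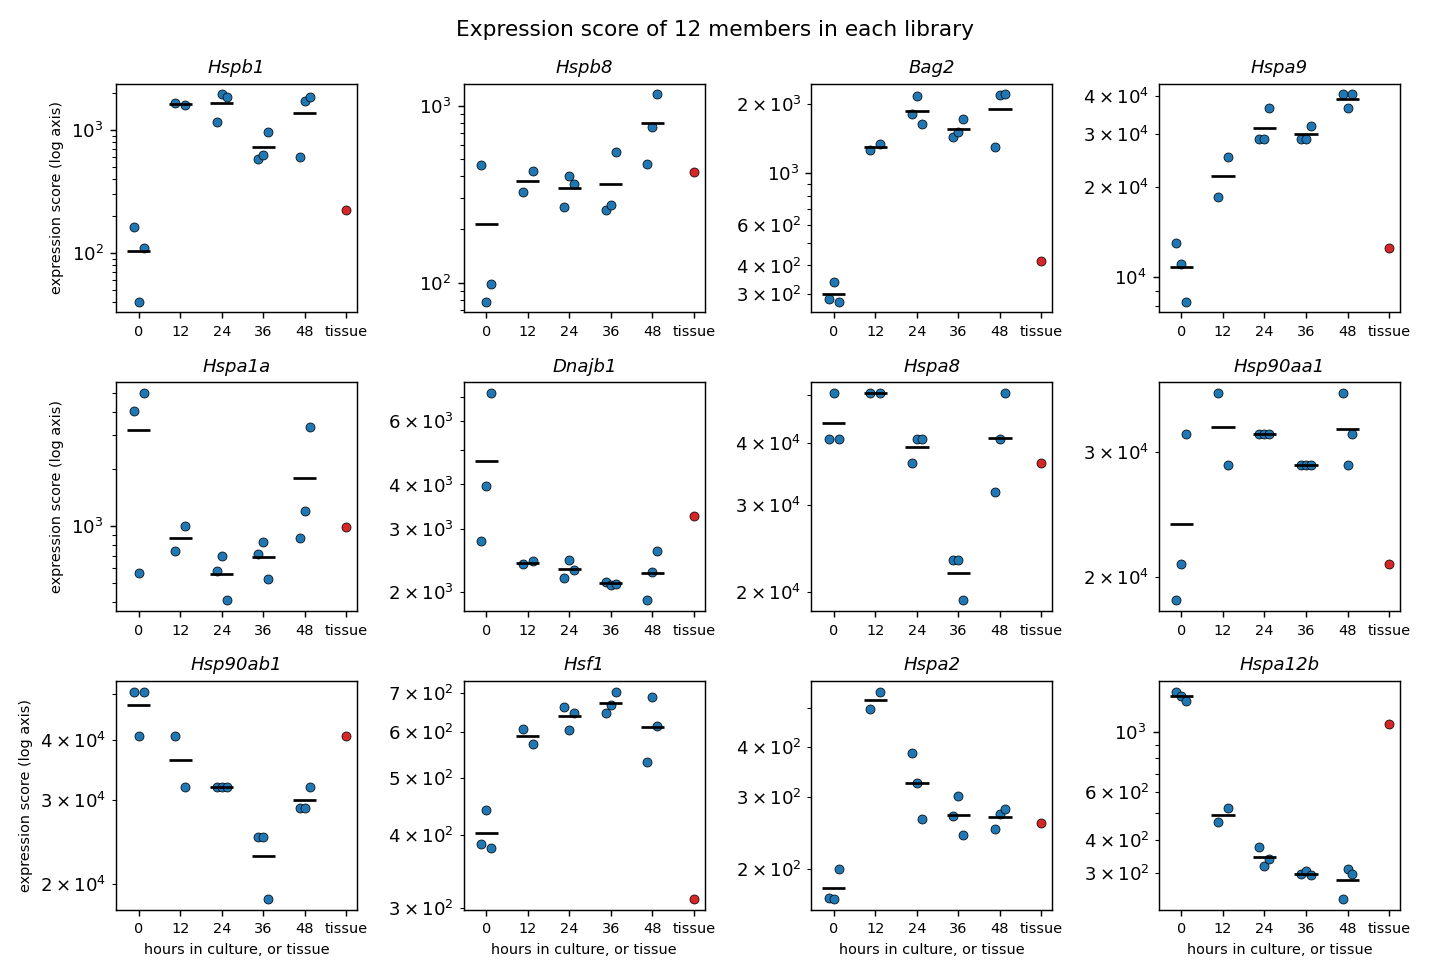
Expression score (log axis) of 12 members in each library by hours in culture (blue) and in the tissue (red), with a line at each group's mean. Hspb1, Bag2, Hspa9, Hsf1 and Hspa2 lie above the 0 h libraries at every culture time, Hspa12b and Dnajb1 lie below them, and Hspa1a is spread over 567 to 5030 at 0 h.

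Among the HSP70 genes the mitochondrial member rose and the inducible cytosolic members did not. Hspa9 encodes mortalin, the motor that pulls proteins into the mitochondrial matrix and folds them there. Hspa9 measured 12971, 11082 and 8295 at 0 h, 18544 and 25050 at 12 h, 28843, 28843 and 36409 at 24 h, 28843, 28843 and 31853 at 36 h, 40667, 36409 and 40667 at 48 h, and 12511 in the tissue. Every cultured library was above the 0 h libraries and the tissue, and the 48 h libraries were above all libraries of 12 h. Its log2 change from 0 h was 1.02 (SE 0.19, adjusted p = 0.000424) at 12 h and 1.89 (SE 0.17, adjusted p = 4.38e-07) at 48 h, with 1.56 and 1.49 between, and all 4 were called. Scores this high repeat exactly between libraries because all libraries draw on the same set of values, so the spread between replicates may be understated there.

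Hspa1a and Hspa1b encode the heat-inducible HSP70 and lie 9951 bases apart on chromosome 17 (chr17:34969190-34972156 and chr17:34956436-34959238). Hspa1a scored 4023, 567 and 5030 at 0 h, 738 and 1005 at 12 h, 584, 701 and 407 at 24 h, 714, 827 and 526 at 36 h, 862, 1206 and 3312 at 48 h, and 988 in the tissue. Hspa1b was listed at 5152, 946 and 7710 at 0 h, 1348 and 1480 at 12 h, 1077, 1145 and 832 at 24 h, 1314, 1314 and 915 at 36 h, 1281, 2039 and 5269 at 48 h, and 1617 in the tissue. Both were high in replicates 1 and 3 at 0 h and low in replicate 2, so the 0 h libraries overlapped all cultured groups. Replicate 3 at 48 h stood above the other cultured libraries for both. The log2 change of Hspa1a was -2.03 (adjusted p = 0.0181) at 24 h and -1.73 (adjusted p = 0.0364) at 36 h, and that of Hspa1b was -1.73 (adjusted p = 0.0288) and -1.52 (adjusted p = 0.0476). At 12 and 48 h neither was called (-1.39 and -0.58 for Hspa1a, -1.25 and -0.48 for Hspa1b). Hspa1a was no longer called at 24 h without 0 h replicate 1 or 3 or 24 h replicate 3 (-1.46 to -1.82). Hspa1a lost its call at 36 h when 0 h replicate 1 or 3 or any 36 h library was left out (-1.16 to -1.88). The Hspa1b call at 24 h was lost without 0 h replicate 1 or 3 or any 24 h library (-1.13 to -1.82). Hspa1b was no longer called at 36 h without 0 h replicate 1 or 3 or any 36 h library (-0.92 to -1.61). The 2 genes are not independent readings: 58.8% of the 2918 words of 50 bases in the Hspa1a transcript also occur in that of Hspa1b, so reads could have been split between them, and 247 of the 250 bases before their starts are identical. No such word of Hspa1a occurs in Hspa8 or Hspa2. The immediate early gene Fos, in the same 0 h libraries, was 16498, 40642 and 127101, so its order over the replicates was not that of Hspa1a. Its part in these values was not tested.

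Hspa8 encodes the constitutive HSC70, which also uncoats clathrin vesicles. Hspa8 had scores of 40684, 50508 and 40684 at 0 h, 50508 and 50508 at 12 h, 36428, 40684 and 40684 at 24 h, 23247, 23247 and 19261 at 36 h, 31886, 40684 and 50508 at 48 h, and 36428 in the tissue. The 3 libraries of 36 h were the lowest of all, the other culture groups overlapped the 0 h libraries or equalled the highest of them, and the tissue was below all 3. It was called lower at 36 h (-1.002, adjusted p = 9.79e-05) and from 24 to 36 h (-0.84, adjusted p = 0.00431), and its change at 48 h was -0.12. Hspa2, best known from male germ cells, peaked at 12 h. Hspa2 measured 169, 168 and 200 at 0 h, 495 and 548 at 12 h, 387, 326 and 265 at 24 h, 270, 303 and 242 at 36 h, 251, 273 and 281 at 48 h, and 260 in the tissue. All cultured libraries were above the 0 h libraries. Its log2 change was 1.54 (SE 0.16, adjusted p = 4.83e-06) at 12 h and 0.85, 0.60 and 0.58 at the later times, all called. It fell from 12 to 24 h by 0.69 on the log2 scale. Hspa2 lost its call from 12 to 24 h when 12 h replicate 1 or 2 or 24 h replicate 2 or 3 was left out (-0.55 to -0.77).

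Hspa12b, a distant HSP70 relative known from endothelium, fell the most of all members at 48 h. Hspa12b scored 1418, 1367 and 1307 at 0 h, 466 and 524 at 12 h, 376, 318 and 339 at 24 h, 297, 305 and 295 at 36 h, 240, 311 and 299 at 48 h, and 1073 in the tissue. Every cultured library was below the 0 h libraries and the tissue. The log2 change was -1.46 (SE 0.12, adjusted p = 6.93e-07) at 12 h and -2.27 (SE 0.11, adjusted p = 2.1e-09) at 48 h, with -1.99 and -2.19 between, and it was called lower from 12 to 24 h as well (-0.52). The Hspa12b call from 12 to 24 h was lost without 12 h replicate 1 or 2 or 24 h replicate 2 (-0.44 to -0.61). Of 5 endothelial markers, Pecam1, Cdh5, Kdr and Tek were lower at each of the 4 culture times and Flt1 was higher. Pecam1 was 1984, 2544 and 1953 at 0 h and 9, 7 and 18 at 48 h, and Cdh5 was 1005, 1116 and 1610 at 0 h and 2, 2 and 5 at 48 h. Their part in the fall of Hspa12b was not tested.

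The remaining HSP70 genes had few calls. Hspa14, which acts at the ribosome with Dnajc2, was called higher at 24 h only (0.40). Hspa14 was listed at 1605, 1553 and 1234 at 0 h, 1380 and 1946 at 12 h, 1808, 1808 and 2168 at 24 h, 1681, 1730 and 1522 at 36 h, 1548, 1557 and 1529 at 48 h, and 1658 in the tissue. The 24 h libraries were above the 0 h libraries by a small margin, and its gene overlaps another annotated locus, so that reads could have been shared. Hspa12a, a brain-rich relative, was called lower at 12 h only (-0.65). Hspa14 was no longer called at 24 h without 0 h replicate 3 or 24 h replicate 3 (0.28 to 0.31). Hspa12a lost its call at 12 h when 0 h replicate 2 or 3 or 12 h replicate 2 was left out (-0.45 to -0.69). Hspa4, an exchange factor for HSP70, had changes from 0.10 to 0.31, and Hspa13, a member of the secretory pathway, from 0.07 to 0.23, with no call at any time. Over the 10 genes, 2, 3, 2 and 2 were higher and 2, 3, 4 and 1 were lower at 12, 24, 36 and 48 h, beside 29.9 to 37.1% of all transcripts higher and 28.3 to 34% lower.

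**Figure D3:**
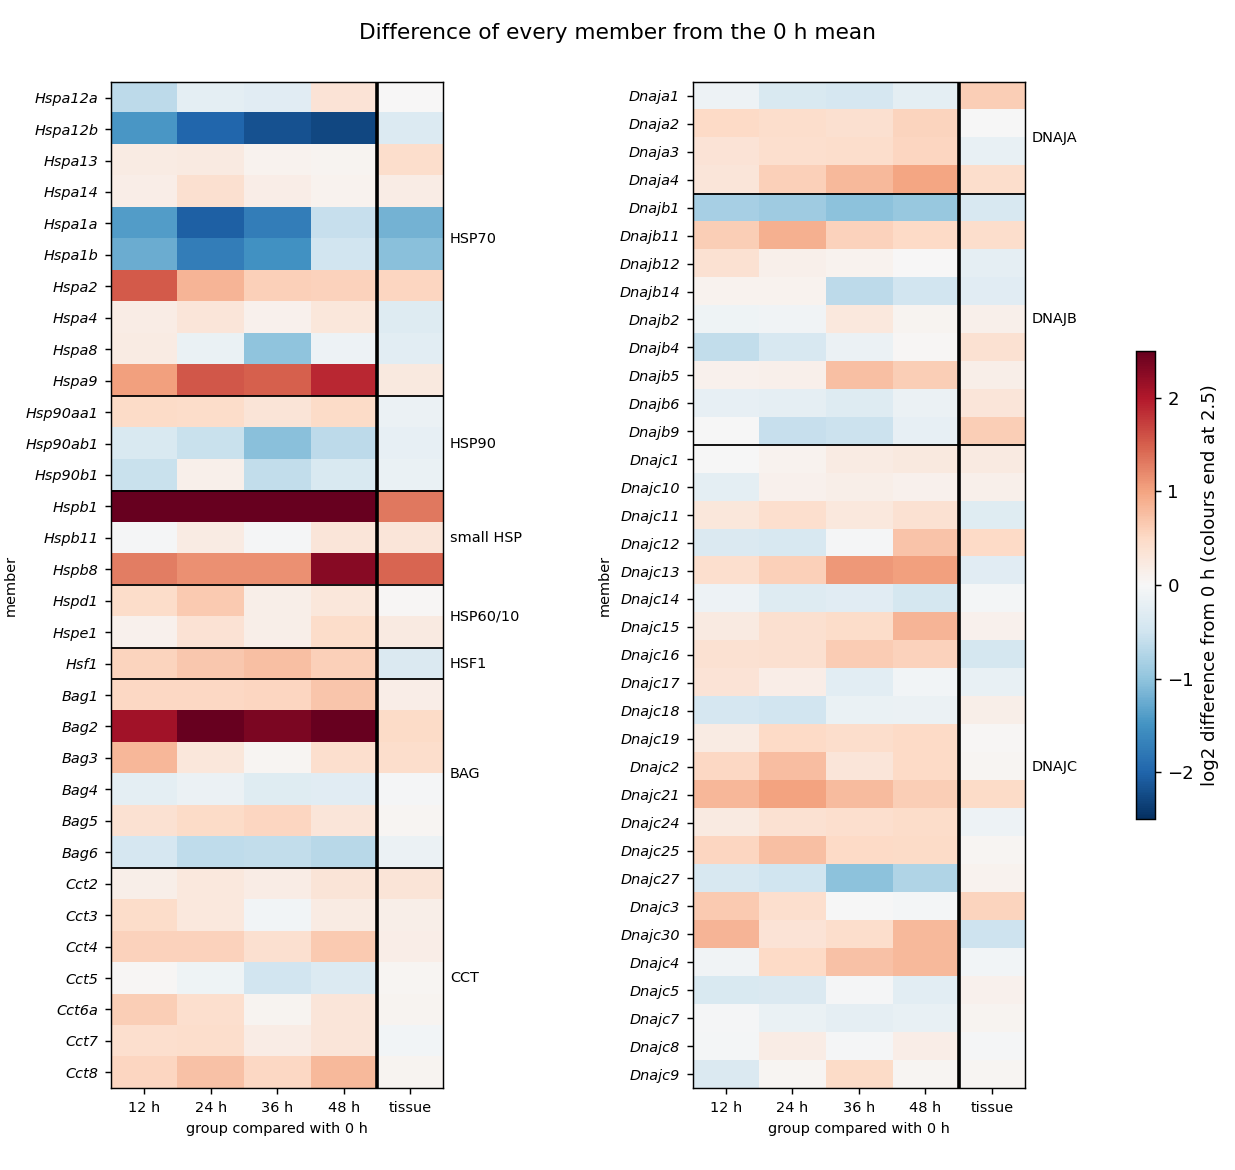
Log2 difference of each of the 68 members from the 0 h mean at 12, 24, 36 and 48 h (limma estimate) and in the single tissue library (right of the thick line), red for higher and blue for lower, grouped by class. Colours end at 2.5, which Hspb1 exceeds at all 4 times and Bag2 at 24 and 48 h, and the DNAJC block holds both rises and falls.

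The 2 cytosolic HSP90 genes moved apart. Hsp90aa1 is the inducible form and Hsp90ab1 the constitutive form of the dimeric chaperone for kinases and steroid receptors. Hsp90aa1 had scores of 18529, 20885 and 31828 at 0 h, 36394 and 28813 at 12 h, 31828, 31828 and 31828 at 24 h, 28813, 28813 and 28813 at 36 h, 36394, 28813 and 31828 at 48 h, and 20885 in the tissue. Hsp90ab1 measured 50508, 40684 and 50508 at 0 h, 40684 and 31886 at 12 h, 31886, 31886 and 31886 at 24 h, 25068, 25068 and 18563 at 36 h, 28882, 28882 and 31886 at 48 h, and 40684 in the tissue. Hsp90aa1 overlapped its 0 h range at every culture time, because replicate 3 at 0 h (31828) reached the range of the cultured libraries (28813 to 36394). Hsp90ab1, in contrast, was below all 0 h libraries at 24, 36 and 48 h. Hsp90aa1 was called higher at 12 h (0.49, adjusted p = 0.0452), 24 h (0.46, adjusted p = 0.0307) and 48 h (0.48, adjusted p = 0.0243), and not at 36 h (0.32). Hsp90ab1 was called lower at 24 h (-0.56, adjusted p = 0.0038), 36 h (-1.05, SE 0.14, adjusted p = 2.49e-05) and 48 h (-0.65, adjusted p = 0.00117), and from 24 to 36 h (-0.49). The Hsp90aa1 call at 12 h was lost without 0 h replicate 1 or 2 or 12 h replicate 1 (0.32 to 0.42). Hsp90aa1 was no longer called at 24 h without 0 h replicate 1 or 2 or any 24 h library (0.30 to 0.46). Hsp90aa1 lost its call at 48 h when 0 h replicate 1 or 2 or 48 h replicate 1 was left out (0.32 to 0.41). The Hsp90ab1 call from 24 to 36 h was lost without any 24 h library or any 36 h library (-0.35 to -0.56). The transcripts of the 2 genes share none of 3232 words of 50 bases. The difference between the 2 genes' changes was not tested. Hsp90b1, the GRP94 of the ER, was not called at any time. Hsp90b1 scored 31728, 36335 and 28694 at 0 h, 20818 and 23160 at 12 h, 50368, 36335 and 23160 at 24 h, 19215, 20818 and 23160 at 36 h, 16457, 28694 and 31728 at 48 h, and 28694 in the tissue. Its libraries at 12 and 36 h were below those of 0 h, with changes of -0.55 (adjusted p = 0.136) and -0.61 (adjusted p = 0.0579). The transcript in the table is one with a retained intron, so its scores need not follow the coding form.

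The chaperonin of the mitochondrial matrix is built from Hspd1 (HSP60) and its lid Hspe1 (HSP10), whose transcripts start 107 bases apart in opposite directions and share the promoter element printed above. Hspd1 was listed at 15054, 12464 and 9574 at 0 h, 13266 and 20818 at 12 h, 19215, 19215 and 19215 at 24 h, 13634, 13266 and 13634 at 36 h, 12923, 14325 and 17316 at 48 h, and 12464 in the tissue. Hspe1 had scores of 4600, 4014 and 3564 at 0 h, 3817 and 5019 at 12 h, 4915, 5520 and 5100 at 24 h, 4560, 4446 and 4446 at 36 h, 4986, 5757 and 5880 at 48 h, and 4736 in the tissue. Hspd1 was called higher at 24 h (0.66, adjusted p = 0.00535) and Hspe1 at 24 h (0.36, adjusted p = 0.0149) and 48 h (0.45, adjusted p = 0.00333), and neither was called at 12 or 36 h. Hspe1 was no longer called at 24 h without 0 h replicate 3 or 24 h replicate 2 (0.27 to 0.31). With Hspa9 and the J-domain proteins of mitochondria (Dnaja3, Dnajc4, Dnajc11, Dnajc15, Dnajc19 and Dnajc30), the list of mitochondrial chaperones had 9 genes with scores. Of these, 3, 8, 7 and 8 were higher at 12, 24, 36 and 48 h, and none was lower at these times, beside 29.9, 35, 36 and 37.1% of all transcripts higher and 28.3, 31.8, 34 and 34% lower. The count at 12 h was 5 without replicate 1 of 0 h, that at 24 h was 5 without replicate 2 of 24 h, and that at 36 h was 4 without replicate 3 of 0 h, where Dnajc11, Dnajc15 and Dnajc30 were no longer called (log2 changes of 0.15, 0.31 and 0.36). With any library left out it was 8 at 48 h. The list's median log2 change was 0.28, 0.41, 0.45 and 0.54. At 48 h the changes ran from 0.28 for Hspd1 to 1.89 for Hspa9.

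**Figure D4:**
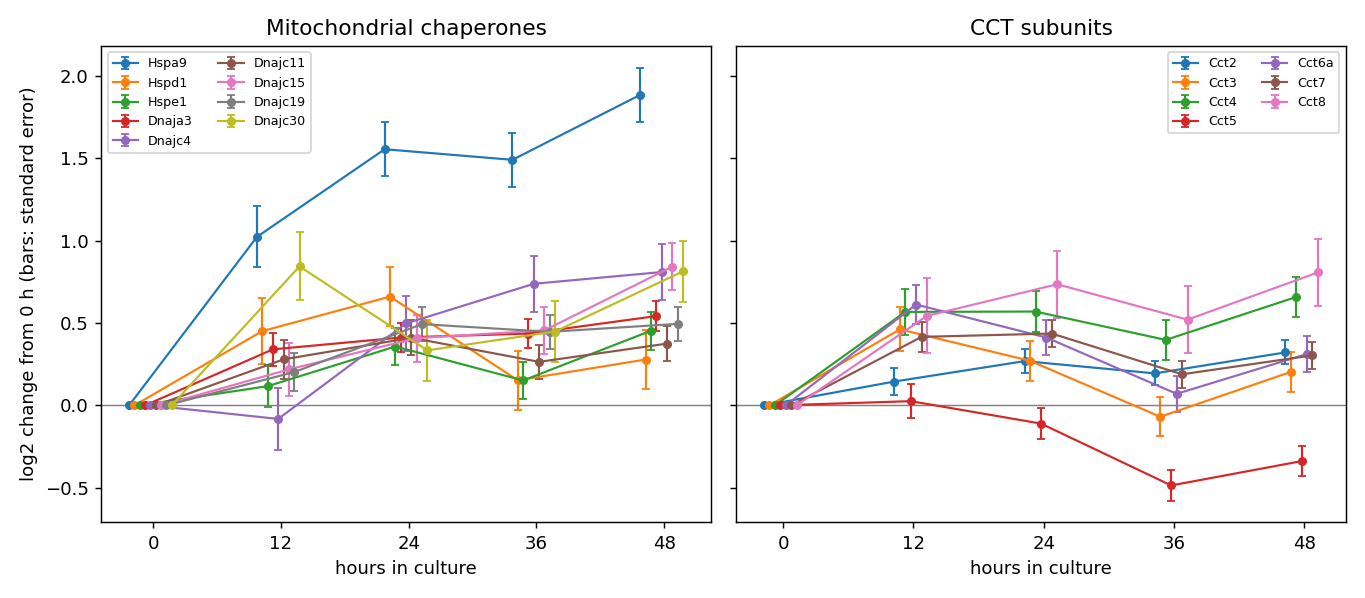
Log2 change from 0 h with its standard error for 9 mitochondrial chaperones (left) and 7 CCT subunits (right) over 48 h of culture, with points set slightly apart for legibility. Hspa9 reaches 1.89, the other mitochondrial members lie between 0.28 and 0.84 at 48 h, and Cct5 is the subunit below 0 at 24, 36 and 48 h, with Cct3 also slightly below at 36 h.

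Hsf1, the transcription factor of the heat shock response, rose at every culture time. Hsf1 measured 386, 441 and 379 at 0 h, 607 and 573 at 12 h, 662, 604 and 648 at 24 h, 646, 667 and 704 at 36 h, 532, 688 and 614 at 48 h, and 310 in the tissue. All cultured libraries were above the 0 h libraries, and the tissue was below them. The log2 change was 0.56 (SE 0.12, adjusted p = 0.00118) at 12 h and 0.74 (SE 0.10, adjusted p = 2.94e-05) at 36 h, with 0.67 at 24 h and 0.60 at 48 h. The list of heat-inducible HSF1 targets had 12 of its 14 genes with scores. Of these, 3, 4, 1 and 4 were higher and 2, 4, 5 and 1 were lower at 12, 24, 36 and 48 h, again beside 29.9 to 37.1% and 28.3 to 34% of all transcripts. With 1 library left out, these ran from 1 to 3, 2 to 4, 1 to 2 and 3 to 5 higher and 0 to 3, 2 to 3, 2 to 4 and 1 to 3 lower. At 36 h the 1 higher was Hspb1 and the 5 lower were Hspa1a, Hspa1b, Hspa8, Dnaja1 and Dnajb1. The list's median change was 0.16, 0.06, -0.05 and 0.15.

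The BAG proteins end the HSP70 cycle by releasing its nucleotide and link it to other machinery. Bag2, which holds back the ubiquitin ligase CHIP, had the second largest rise of all members at 48 h (transcript ENSMUST00000044691, chr1:33745484-33757795). Bag2 scored 288, 340 and 279 at 0 h, 1257 and 1334 at 12 h, 1798, 2154 and 1630 at 24 h, 1434, 1515 and 1715 at 36 h, 1295, 2168 and 2199 at 48 h, and 418 in the tissue. Every cultured library was above the 0 h libraries and the tissue by a wide gap. Its log2 change was 2.10 (SE 0.20, adjusted p = 2.15e-06) at 12 h and 2.60 (SE 0.18, adjusted p = 5.05e-08) at 48 h, with 2.61 and 2.36 between, and with 1 library left out it stayed between 2.05 and 2.85. Bag1, which ties HSP70 to the proteasome, also rose at every time. Bag1 was listed at 2791, 2663 and 2280 at 0 h, 3250 and 4163 at 12 h, 3848, 3539 and 3706 at 24 h, 4074, 4099 and 3139 at 36 h, 4394, 4048 and 4074 at 48 h, and 2885 in the tissue. All cultured libraries were above those of 0 h. Its changes were 0.52, 0.52, 0.54 and 0.70 at 12, 24, 36 and 48 h. Bag5 rose at every time too, by 0.30 to 0.54.

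Bag6, which guides tail-anchored membrane proteins and misfolded secretory proteins in the cytosol, fell at every time. Bag6 had scores of 4808, 4858 and 4925 at 0 h, 3929 and 3336 at 12 h, 3077, 2937 and 3403 at 24 h, 3336, 3183 and 2970 at 36 h, 2819, 3052 and 3099 at 48 h, and 4375 in the tissue. All cultured libraries were below those of 0 h and the tissue. Its changes were -0.43, -0.63, -0.62 and -0.70 at 12, 24, 36 and 48 h. Bag3, a stress-induced partner of Hspb8, was called higher at 12 h only. Bag3 measured 277, 322 and 573 at 0 h, 865 and 498 at 12 h, 406, 463 and 488 at 24 h, 392, 379 and 381 at 36 h, 401, 514 and 584 at 48 h, and 506 in the tissue. Its change was 0.82 (adjusted p = 0.0244) at 12 h and 0.41 at 48 h. Bag4, known as a silencer of death receptors, was called lower at 12, 36 and 48 h. Bag4 scored 557, 554 and 611 at 0 h, 518 and 450 at 12 h, 497, 518 and 536 at 24 h, 465, 467 and 456 at 36 h, 457, 459 and 490 at 48 h, and 560 in the tissue. The changes were small (-0.25, -0.31 and -0.29). Bag1 lost its call at 12 h when 12 h replicate 2 was left out (0.34). The Bag3 call at 12 h was lost without 0 h replicate 1 or 2 or 12 h replicate 1 (0.42 to 0.72). Bag4 was no longer called at 12 h without 0 h replicate 3 or 12 h replicate 2 (-0.15 to -0.20). Bag5 lost its call at 12 h when 12 h replicate 2 was left out (0.29). Of the 6 BAG genes, 4, 3, 3 and 3 were higher and 2, 1, 2 and 2 were lower at 12, 24, 36 and 48 h, where 29.9 to 37.1% of all transcripts were higher and 28.3 to 34% lower.

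The CCT subunits, which together build the rings of the cytosolic chaperonin, changed by less than 2-fold at every time. Of the 7 subunits with the Cct symbol, 4, 5, 3 and 5 were higher at 12, 24, 36 and 48 h, and none was lower before 36 h. Among all transcripts 29.9, 35, 36 and 37.1% were higher and 28.3, 31.8, 34 and 34% lower, so that the count higher at 36 h was close to that share. Their median log2 change was 0.46, 0.41, 0.19 and 0.31. Cct4 rose at all 4 times and Cct8 from 24 h on. Cct4 was listed at 8750, 8107 and 7240 at 0 h, 11650 and 12093 at 12 h, 9810, 12520 and 13677 at 24 h, 10725, 10463 and 10463 at 36 h, 11092, 13677 and 13302 at 48 h, and 8959 in the tissue. Cct8 had scores of 12083, 9206 and 5983 at 0 h, 10718 and 15112 at 12 h, 13670, 14391 and 15615 at 24 h, 13670, 12971 and 11082 at 36 h, 15112, 15615 and 15112 at 48 h, and 9206 in the tissue. Cct4 changed by 0.57, 0.57, 0.40 and 0.66 at 12, 24, 36 and 48 h, and Cct8 by 0.81 (adjusted p = 0.00327) at 48 h. Cct5 went the other way. Cct5 measured 12916, 12458 and 12028 at 0 h, 12458 and 12916 at 12 h, 10682, 11557 and 12458 at 24 h, 8912, 8254 and 9571 at 36 h, 8912, 10049 and 10682 at 48 h, and 12916 in the tissue. It was called lower at 36 h (-0.49, adjusted p = 0.0004) and 48 h (-0.34, adjusted p = 0.00511), when its libraries were below all those of 0 h, and from 24 to 36 h (-0.38).

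Cct6a was called higher at 12, 24 and 48 h. Cct6a scored 5823, 5102 and 4849 at 0 h, 7568 and 8488 at 12 h, 5823, 7568 and 7699 at 24 h, 5464, 5523 and 5523 at 36 h, 6173, 6681 and 6681 at 48 h, and 5523 in the tissue. Its change was largest at 12 h (0.61, adjusted p = 0.000814), and it fell by 0.34 from 24 to 36 h. Cct7 was called higher at 12, 24 and 48 h (0.42, 0.44 and 0.30), Cct2 at 24, 36 and 48 h (0.27, 0.19 and 0.32), and Cct3 at 12 h only (0.46). The Cct2 call at 36 h was lost without 0 h replicate 2 or 3 or any 36 h library (0.16 to 0.19). Cct3 was no longer called at 12 h without 12 h replicate 2 (0.27). Cct5 lost its call from 24 to 36 h when 24 h replicate 3 or 36 h replicate 1 or 2 was left out (-0.32 to -0.38). The Cct6a call at 48 h was lost without 0 h replicate 2 or 3 or 48 h replicate 2 or 3 (0.26 to 0.29). Cct6a was no longer called from 24 to 36 h without 24 h replicate 2 or 3 or any 36 h library (-0.27 to -0.34). Cct8 lost its call at 36 h when 0 h replicate 2 or 3 or 36 h replicate 1 or 2 was left out (0.25 to 0.56). Tcp1, another subunit of the ring, stands outside the rule and was not called at any time, with changes of 0.01, -0.07, -0.29 and -0.31 at 12, 24, 36 and 48 h.

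The J-domain proteins start the HSP70 cycle and choose its clients. Of 36, the count of higher genes was 10, 15, 16 and 18 and that of lower genes 6, 7, 6 and 5 at 12, 24, 36 and 48 h. The shares over all transcripts were 29.9, 35, 36 and 37.1% higher and 28.3, 31.8, 34 and 34% lower. At 48 h, 3 of 4 Dnaja genes were higher and 0 lower, 13 of 23 Dnajc genes were higher and 3 lower, and 2 of 9 Dnajb genes were higher and 2 lower, beside the same 37.1% and 34% of all transcripts. Dnajb1, the heat-inducible HSP40, fell at every time. Dnajb1 was listed at 2788, 3957 and 7215 at 0 h, 2393 and 2444 at 12 h, 2198, 2453 and 2304 at 24 h, 2142, 2098 and 2109 at 36 h, 1896, 2278 and 2607 at 48 h, and 3261 in the tissue. The cultured libraries were all below those of 0 h, which differed among themselves in the order of Fos (16498, 40642 and 127101). That relation was not tested. The log2 change was -0.83 (adjusted p = 0.0196) at 12 h and -1.02 (SE 0.24, adjusted p = 0.00229) at 36 h, with -0.89 and -0.94 at 24 and 48 h. The Dnajb1 call at 12 h was lost without 12 h replicate 1 or 2 (-0.82 to -0.85).

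The other Dnajb genes named by size of change differ in compartment. Dnajb11, a cofactor of the ER HSP70, rose at every time. Dnajb11 had scores of 2368, 2579 and 1665 at 0 h, 2973 and 3693 at 12 h, 4788, 3903 and 3470 at 24 h, 3133, 3263 and 3263 at 36 h, 2740, 3263 and 3203 at 48 h, and 2958 in the tissue. Its changes were 0.61, 0.89, 0.57 and 0.50 at 12, 24, 36 and 48 h. Dnajb14, of the ER membrane, and Dnajb5 changed from 36 h on, in opposite directions. Dnajb14 measured 2792, 2237 and 1866 at 0 h, 2119 and 2715 at 12 h, 2228, 2627 and 2438 at 24 h, 1421, 1353 and 1524 at 36 h, 1593, 1578 and 1742 at 48 h, and 1866 in the tissue. Dnajb5 scored 296, 345 and 398 at 0 h, 370 and 374 at 12 h, 446, 385 and 307 at 24 h, 602, 640 and 505 at 36 h, 544, 522 and 525 at 48 h, and 382 in the tissue. Dnajb14 changed by -0.66 (adjusted p = 0.00069) at 36 h and Dnajb5 by 0.75 (adjusted p = 0.000475), both were called at 48 h too (-0.47 and 0.62), and between 24 and 36 h their changes were -0.76 and 0.63, both called. Dnajb4, a cytosolic relative of Dnajb1, was called lower at 12 h only. Dnajb4 was listed at 1114, 1691 and 1982 at 0 h, 915 and 1135 at 12 h, 1374, 1253 and 949 at 24 h, 1330, 1364 and 1499 at 36 h, 1264, 1609 and 1950 at 48 h, and 2007 in the tissue. Replicate 2 at 12 h overlapped replicate 1 at 0 h. The change was -0.61 at 12 h and 0.03 at 48 h. Dnajb9, an ER protein, was called lower at 24 h only (-0.57). Dnajb11 was no longer called at 12 h without 12 h replicate 2 (0.46). Dnajb11 lost its call at 48 h when 0 h replicate 3 was left out (0.31). The Dnajb4 call at 12 h was lost without 0 h replicate 2 or 3 or 12 h replicate 1 or 2 (-0.43 to -0.76). Dnajb5 was no longer called from 24 to 36 h without 24 h replicate 3 or 36 h replicate 2 (0.48 to 0.56). Dnajb9 lost its call at 24 h when 0 h replicate 2 or 3 or 24 h replicate 2 or 3 was left out (-0.37 to -0.58).

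Of the Dnaja genes, which help HSP70 import and refold proteins, Dnaja4 rose by the most. Dnaja4 had scores of 155, 189 and 262 at 0 h, 238 and 250 at 12 h, 339, 280 and 280 at 24 h, 384, 328 and 336 at 36 h, 426, 348 and 400 at 48 h, and 269 in the tissue. It was called at 24 h (0.59), 36 h (0.82) and 48 h (0.98, SE 0.17, adjusted p = 0.000186). Dnaja2, of the cytosol, and Dnaja3, of mitochondria, were called higher at every time. Dnaja2 measured 3123, 3082 and 2764 at 0 h, 3738 and 4711 at 12 h, 3938, 4065 and 4065 at 24 h, 3969, 4044 and 3758 at 36 h, 4192, 4533 and 4533 at 48 h, and 2962 in the tissue. Dnaja3 scored 1410, 1338 and 1104 at 0 h, 1615 and 1619 at 12 h, 1708, 1727 and 1664 at 24 h, 1688, 1771 and 1727 at 36 h, 2016, 1776 and 1798 at 48 h, and 1121 in the tissue. At 48 h they had changed by 0.56 and 0.54. The 12 h call of Dnaja3 (0.34) was lost when only the 0 and 12 h libraries were fitted (adjusted p = 0.0855). The heat-inducible Dnaja1 was called lower at 24 h (-0.38) and 36 h (-0.41). Dnaja1 was listed at 6494, 7913 and 6203 at 0 h, 5160 and 7596 at 12 h, 5160, 5281 and 5281 at 24 h, 5340, 5160 and 4899 at 36 h, 5160, 5717 and 6494 at 48 h, and 10453 in the tissue. All libraries of 24 and 36 h were below those of 0 h, and the tissue was the highest library. The Dnaja1 call at 24 h was lost without 0 h replicate 2 or 24 h replicate 1 or 2 (-0.28 to -0.39). Dnaja1 was no longer called at 36 h without 0 h replicate 2 or 36 h replicate 3 (-0.31 to -0.38).

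Among the Dnajc genes the largest rises were in Dnajc13, an endosomal protein, and Dnajc21, which acts in ribosome assembly. Dnajc13 had scores of 2283, 2025 and 2245 at 0 h, 3288 and 2605 at 12 h, 3493, 3172 and 3267 at 24 h, 4899, 4707 and 4277 at 36 h, 5039, 4252 and 4027 at 48 h, and 1799 in the tissue. Dnajc21 measured 352, 327 and 334 at 0 h, 504 and 725 at 12 h, 740, 653 and 656 at 24 h, 573, 574 and 616 at 36 h, 505, 530 and 523 at 48 h, and 472 in the tissue. Dnajc13 changed by 0.42, 0.60, 1.08 and 1.02 at 12, 24, 36 and 48 h, and Dnajc21 by 0.84, 1.01, 0.80 and 0.62 at 12, 24, 36 and 48 h. Dnajc30 and Dnajc15, both of the mitochondrial inner membrane, rose to 0.81 (adjusted p = 0.00156) and 0.84 (adjusted p = 0.000156) at 48 h. Dnajc30 scored 87, 85 and 72 at 0 h, 174 and 123 at 12 h, 83, 107 and 121 at 24 h, 124, 102 and 108 at 36 h, 160, 135 and 136 at 48 h, and 56 in the tissue. At 24 h Dnajc30 was not called. Dnajc27, which joins a J domain to a small GTPase, fell at every time. Dnajc27 was listed at 637, 656 and 633 at 0 h, 464 and 507 at 12 h, 420, 461 and 484 at 24 h, 327, 305 and 313 at 36 h, 373, 370 and 402 at 48 h, and 686 in the tissue. All cultured libraries were below those of 0 h, and its change was -1.03 (SE 0.09, adjusted p = 3.3e-07) at 36 h and -0.75 at 48 h.

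Dnajc18 was lower at 12 and 24 h only (-0.41 and -0.48). Dnajc18 had scores of 1083, 1001 and 943 at 0 h, 768 and 746 at 12 h, 749, 707 and 712 at 24 h, 825, 971 and 907 at 36 h, 918, 949 and 866 at 48 h, and 1114 in the tissue. Its 36 and 48 h libraries moved back toward the 0 h level. Dnajc14, an ER protein, was called lower from 24 h on. Dnajc14 measured 2140, 2275 and 1741 at 0 h, 1746 and 1977 at 12 h, 1689, 1626 and 1565 at 24 h, 1727, 1694 and 1617 at 36 h, 1512, 1547 and 1464 at 48 h, and 1958 in the tissue. At 48 h the change was -0.44 (adjusted p = 0.00105). Dnajc9, a histone chaperone, was the 1 member called in both directions against 0 h, lower at 12 h (-0.36) and higher at 36 h (0.49). Dnajc13 lost its call at 12 h when 12 h replicate 1 was left out (0.26). The Dnajc14 call at 36 h was lost without 0 h replicate 1 or 2 or 36 h replicate 3 (-0.20 to -0.25). Dnajc15 was no longer called at 24 h without 0 h replicate 3 or 24 h replicate 2 or 3 (0.26 to 0.38). Dnajc15 lost its call at 36 h when 0 h replicate 3 was left out (0.31). The Dnajc18 call from 24 to 36 h was lost without 24 h replicate 2 or 3 or 36 h replicate 2 or 3 (0.26 to 0.31). Dnajc30 was no longer called at 12 h without 12 h replicate 1 (0.60). Dnajc30 lost its call at 36 h when any 0 h library or any 36 h library was left out (0.36 to 0.51). The Dnajc9 call at 12 h was lost without 0 h replicate 1 or 2 or 12 h replicate 1 (-0.23 to -0.35). Dnajc9 was no longer called from 24 to 36 h without 24 h replicate 2 or 3 or 36 h replicate 1 or 2 (0.37 to 0.42). The other Dnajc genes had log2 changes from 0 h between -0.39 (Dnajc12 at 24 h, not called) and 0.81 (Dnajc4 at 48 h, called).

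The list of ER chaperones had 7 genes with scores (Hsp90b1, Hspa13, Dnajb9, Dnajb11, Dnajc1, Dnajc3 and Dnajc10), and it leaves out other proteins of the ER such as Dnajb14 and Dnajc14, which were called lower at 36 and 48 h. Of the 7, 2, 2, 1 and 2 were higher and 0, 1, 0 and 0 were lower at 12, 24, 36 and 48 h, beside 29.9 to 37.1% of all transcripts higher and 28.3 to 34% lower. The count higher was 0 at 12 h without replicate 2 of 12 h and 0 at 48 h without replicate 3 of 0 h. With 1 library left out it ran from 1 to 3 at 24 h, with 3 when replicate 2 of 0 h or replicate 3 of 24 h was left out and 1 in the other 4 fits, and 1 was higher at 36 h in each. Without replicate 1 of 0 h, 1 gene of the list was lower in each of the 36 and 48 h comparisons. The 1 lower at 24 h, Dnajb9, was lost in 4 of the fits that left out 1 library. Dnajc3, whose promoter element is printed above and whose protein restrains the ER stress kinase PERK, was called higher at 12 h (0.65) and 24 h (0.43) and stood near the 0 h level at 48 h (-0.04). Dnajc3 lost its call at 12 h when 12 h replicate 2 was left out (0.57). The Dnajc3 call at 24 h was lost without 0 h replicate 1 or 3 or 24 h replicate 1 or 2 (0.29 to 0.42).

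Genes of the same pathways outside the rule were read from 4 lists, whose counts stand beside 29.9, 35, 36 and 37.1% of all transcripts higher and 28.3, 31.8, 34 and 34% lower at 12, 24, 36 and 48 h. Of 21 genes of ER folding and the unfolded protein response, 4, 8, 6 and 7 were higher, which is near or below those shares at each time, and 3, 2, 2 and 2 were lower. The largest called changes were rises of Ddit3, a transcription factor of ER and amino acid stress, by 2.77 (adjusted p = 1.68e-06) at 48 h, of the ER stress sensor Atf6 by 1.41 at 36 h, and of Atf4, the factor of the integrated stress response, by 1.24 at 36 h. Ddit3 was 243, 255 and 492 at 0 h, 286 and 445 at 12 h, 544, 517 and 545 at 24 h, 1419, 1423 and 1056 at 36 h, 3118, 1734 and 1791 at 48 h, so that all libraries of 36 and 48 h were above those of 0 h. Serpinh1, the collagen chaperone HSP47, had log2 changes of 0.23, 0.39, 0.77 and 0.43 at 12, 24, 36 and 48 h and was called at 24, 36 and 48 h.

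Of 18 cytosolic co-chaperones, 8, 7, 5 and 7 were higher and 1, 5, 4 and 4 were lower at 12, 24, 36 and 48 h, near the shares of all transcripts (35% higher and 31.8% lower) at 24 h. Their largest called changes were falls, of Fkbp5, an HSP90 partner at steroid receptors, at 48 h (-1.39, adjusted p = 8.64e-05), of polyubiquitin Ubb at 24 h (-1.14, adjusted p = 1.65e-05), and of Fkbp4, a relative of Fkbp5, at 36 h (-0.97). Of 10 genes for Tcp1, prefoldin and their regulators, 5, 6, 5 and 4 were higher and 2, 1, 1 and 1 were lower at 12, 24, 36 and 48 h, and the 4 at 48 h are near the 37.1% of all transcripts. Pdcl3, a cofactor of CCT, changed by 1.40 at 24 h, the prefoldin subunit Pfdn4 by 1.08 at 24 h, and the subunit Pfdn5 by -0.97 at 36 h. Of 10 genes of mitochondrial folding and proteolysis, 4 were higher at 12 and 24 h (29.9 and 35% of all transcripts) and 5 at 36 and 48 h (36 and 37.1%), with none lower. Htra2, a protease between the mitochondrial membranes, changed by 1.32 at 24 h, and the Hspa9 exchange factor Grpel1 by 1.02 and the matrix protease Clpp by 0.86 at 48 h.

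The tissue asks how the members stood before dissociation, and with 1 library it carries no test. Its score was above all 3 libraries of 0 h for 26 members (29.7% of all transcripts), below all 3 for 10 (32%) and within their range for 32. The median of the log2 difference, tissue minus 0 h, was 0.061 for the members and -0.015 for all transcripts. More than 2-fold higher in the tissue were 2 members, Hspb8 (1.45) and Hspb1 (1.31), beside 2.56% of all transcripts. More than 2-fold lower were 2, Hspa1a (-1.19) and Hspa1b (-1.05), beside 1.22%. Hspb1 was the only 1 of these 4 outside the range of the 0 h libraries. The count of 2 higher fell to 0 without replicate 2 at 0 h, and the count of 2 lower fell to 0 without replicate 1 or replicate 3. For Hspb1, Bag2 and Hspa9 the tissue (223, 418 and 12511) was below every cultured library, and for Hspa12b it stood at 1073, between the 0 h and the cultured libraries.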

How the data were processed

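RNA-seq (TruSeq libraries, HiSeq sequencing) was analysed in 15 libraries grouped by their sample labels. The authors trimmed adaptors, aligned reads to the mouse transcriptome (mm10, Ensembl) with bowtie, estimated expression with RSEM (1.1.21 in the submitters' processing notes) and tested it with DESeq2. The authors deposited 1 table of whole-number expression scores; library totals of 21357605 to 21365980 show that the scores, although labelled cpm, are on a common distribution, so a change in total RNA cannot be seen. No column was left out.

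Transcripts were matched to genes by identifier in an annotation of GRCm38 (11973 of 12089). Log2(score + 1) of the 14 mDMC libraries was modelled with limma (version 3.58.1, R 4.3.3), a mean for each time and a variance trend on intensity, without the tissue. The 12079 transcripts that reached 1 ppm of a library's total in 2 or more libraries were tested. p-values were Benjamini-Hochberg adjusted over these. A count test was not used because the values are not counts. The fit was tested on simulated data.

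All members were named except J-domain genes, of which the 6 largest rises and 6 largest falls among those called were named by rule; scores in every library were given for the 3 largest rises and falls of each class and for the main constitutive members. Dnaja2, Dnaja3, Dnajb5, Dnajc14 and Dnajc18 fall under the second part of that rule. Values of Dnajc3, Dnajc4, Dnajc9 and Dnajc12 were singled out after they were seen. The members, gene lists and rules were chosen with earlier results of these data known. Promoters came from RefSeq (GRCm38.p6), and 5 of the 54 windows start over 1000 bases from the transcript in the table. Plots used Python 3.11.15 and matplotlib 3.10.9. Alternatives were a pseudocount of 0.1 or 10, other filters, median centring, fits of only the times compared, a replicate block, the study's threshold and leaving out each replicate. Whether replicate numbers pair libraries was checked by correlating deviations from group means, and they were not treated as paired.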

Additional observations from a re-analysis of the deposited data

How the results depend on the processing

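Of 52 changes of named members from 0 h to 12 or 48 h, 39 kept their direction and call in every setting in which the member was fitted, 12 lost the call with 1 library left out, 8 lost it in another setting and 0 reversed. Members below 10 ppm in any library, among them Hspb1, Hspb8, Hspa2, Dnaja4 and Dnajc30, had no fit with at least 10 ppm in all libraries. They were judged on the other settings only. The 16 class medians were recomputed with a pseudocount of 0.1 and with no filter only. By an unadjusted p below 0.05 and more than 2-fold, 4, 4, 4 and 5 members were higher than at 0 h and 1, 3, 7 and 1 lower at 12, 24, 36 and 48 h. From 12 to 24 h 0 were lower, and from 24 to 36 h 0 were higher and 1 lower. Among all transcripts 12.2 and 16.2% were higher and 12.1 and 15.9% lower at 12 and 48 h. The shares for the other comparisons were not counted, so those counts cannot be read as particular to the members. Fits of only the times compared called 17 members higher and 6 lower from 0 to 12 h, 0 lower from 12 to 24 h and 11 lower from 24 to 36 h. The shares of all transcripts called in these fits were not counted, so the counts have no background. In these fits 11, 6, 5 and 3 member calls from 0 h to 12, 24, 36 and 48 h were lost, and each was also lost with 1 library left out except that of Dnaja3 at 12 h. With at least 10 ppm in all libraries, 1 was lower from 12 to 24 h. Hspa2, called lower there in the main fit, had 0 h scores of 168 to 200, below 10 ppm, and was not tested with that filter. The cause of the other differences was not tested.

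With 1 library left out, 0 to 2 members were higher and 0 to 2 lower from 12 to 24 h, 1 to 4 higher and 3 to 8 lower from 24 to 36 h, and 0 to 1 higher and 0 to 2 lower from 36 to 48 h, the last when replicate 1 of 48 h was left out. In the tissue, 0 to 2 were more than 2-fold higher and 0 to 2 lower.

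With the replicate number as a block, 1 member, Dnajc9, was higher from 12 to 24 h (adjusted p = 0.0284 in limma), and 7 members in place of 10 were lower from 0 to 12 h. Bag4, Dnajb4 and Hspa12a at 12 h (adjusted p = 0.0728, 0.0573 and 0.0628), Dnajb9 at 24 h (0.0527), Dnajc30 at 36 h (0.0558) and Dnajc17 from 24 to 36 h (0.0647) were not called in that fit. The correlation of deviations had a mean of 0.077 over 26 same-numbered pairs of libraries, from -0.25 to 0.318 with 11 over 0.1, and of -0.038 over 52 other pairs, and 10 of 14 libraries were closest to one of their own number. Deviations from a group mean cancel within the group. The mean over other pairs is therefore largely fixed by that over same-numbered pairs and adds no separate support. The same-numbered correlations are only a weak hint from the data that the numbers may mark something shared. Not every pair was over 0.1 and the sources do not say what a number marks, so the libraries were not treated as paired. Depth is unknown, the spread of high scores may be understated because such scores repeat exactly, and 2 libraries at 12 h limit that comparison.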
